A study of Mus musculus with 8 samples.

Results

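The genes described here are the 220 well expressed genes of mouse chromosome 6 in embryonic stem cells. They were chosen by measured values: each lies on chromosome 6 by its Ensembl identifier in the GRCm38 annotation and averages 20 FPKM or more over all 8 samples, where FPKM counts sequenced fragments scaled to transcript length and library size. The 8 samples listed 17727 gene identifiers that could be used, of which 879 were on chromosome 6. Another 10 genes reached the level but were left out by name: the pluripotency genes Nanog, Gdf3 and Phc1, the glucose transporter gene Slc2a3, the glycolysis genes Gapdh, Tpi1, Hk2 and Ldhb, and the ribosomal genes Rpl32 and Rps4l. The chromosome itself was picked because its genes were already known to be lower in E3-KO in these samples, so the size of the drop is given as a description and only the differences among the members, gene by gene, are tested.

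Total RNA was sequenced from E14TG2a cells, a feeder-free mouse embryonic stem cell line of 129/Ola origin grown on gelatin with serum, leukaemia inhibitory factor, the GSK3 inhibitor CHIR99021 and the MEK inhibitor PD0325901. Wild-type cells (WT) were set beside 3 lines in which CRISPR/Cas9 had removed an enhancer, called E1-KO, E2-KO or E3-KO, and each of the 4 groups had 2 biological replicates. The stated interest was the link between promoters, enhancers and the function of Sox2, a transcription factor of pluripotent cells. The labels give neither the position of the enhancers nor the number of clones behind a line, and no edited line with all enhancers intact was analysed here, so the edit, the clone and the culture of a line cannot be told apart.

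Genes of a chromosome share a place, not a task. The members code for parts of the spliceosome, chromatin remodellers, vesicle coats, mitochondrial proteins and metabolic enzymes, and many of their products work only when joined to subunits made from genes on other chromosomes. A few, such as Peg10 and Mest, are imprinted, which means that they are read mainly from the copy inherited from the father. Embryonic stem cells divide quickly and make much use of the replication, splicing and ribosome machinery.

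The samples carried the marks of stem cells. A list of 6 stem cell markers summed to between 1206 and 1600 FPKM in every sample, while 7 fibroblast markers summed to 3.81 FPKM at most and 4 primitive endoderm markers to 4.69 FPKM at most. The stem cell sums were lowest in E3-KO, at 1206 and 1324 FPKM, beside 1426 and 1487 FPKM in WT. Single markers went both ways there: Klf4, Esrrb, Sox2 and Tdgf1 were below WT in both samples, and Pou5f1 and Zfp42 above. Marker sums of trophectoderm, the outer layer of the early embryo, were 26.9 and 36.5 FPKM in E3-KO, 21.1 and 22.1 FPKM in WT and up to 27.2 FPKM in E1-KO. Of 3 neural markers, the 2 found summed to 11.49 and 11.96 FPKM in E3-KO, 5.54 and 6.43 FPKM in WT and up to 11.1 FPKM in E1-KO. Most of this sum was Nes, at 11.3 and 10.6 FPKM in E3-KO, where Pax6 was at 0.61 and 0.94 FPKM. The part of all these markers in the results was not tested. In bulk RNA, fewer cells of a type and less RNA per cell cannot be told apart. Absolute sequencing depth is not known from FPKM values, so no counting error could be given, and every value is a share of its own library.

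In E3-KO the members were low as a body. The median member stood at 66.3% of its WT mean, a median log2 change of -0.58 on the log2(FPKM + 1) scale. The 3861 genes of the same expression level on other chromosomes had a median of -0.07, and the medians of the other 19 chromosomes lay between -0.14 and 0.01. By sample, the members' median log2 ratio to WT was -0.57 in E3-KO replicate 1 and -0.61 in replicate 2, while the E1-KO and E2-KO samples lay between -0.03 and 0.04. The members took 4.0% of all FPKM in both WT samples, 4.1% to 4.4% in E1-KO and E2-KO, and 2.9% and 3.0% in E3-KO.

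Gene by gene, 153 members fell in E3-KO against WT (69.5% of the members, where 30.8% of all 11272 tested genes did), 7 rose (13.9% of all tested genes did) and 60 did not pass the test. The test was limma's moderated fit with all 8 samples and a Benjamini-Hochberg adjusted p-value under 0.05 over all tested genes, as it is throughout. Both E3-KO samples lay below both WT samples for 186 members (48.4% of tested genes did so) and above them for 10 (25.7% of tested genes). Since the chromosome was picked for this drop, nothing is read from these counts. The number of members that rose was small and unstable: it was 5 without either E3-KO replicate, 4 without WT replicate 1 and 2 without WT replicate 2.

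**Figure D1:**
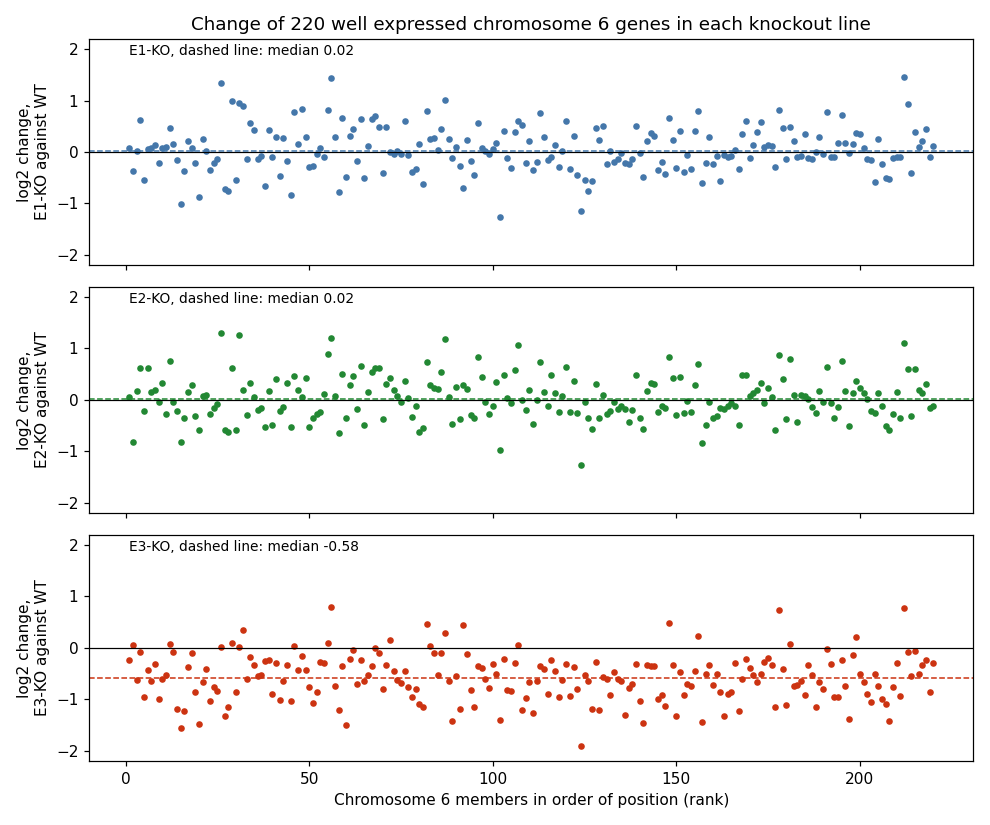
Log2 change against WT of each of the 220 members (vertical axis), placed by its rank along chromosome 6 (horizontal axis), with 1 panel for each knockout line. Each point is the difference of group means from 2 samples each, and the dashed lines are the medians; the E3-KO points centre on -0.58 over the whole length, while the E1-KO and E2-KO points centre on 0.02.

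In E1-KO and E2-KO the members were centred near the WT level. In E1-KO, 38 members fell (23% of all tested genes fell) and 51 rose (15% of tested genes), with a median of 0.02. In E2-KO, 39 fell (21.9% of tested genes) and 47 rose (14.2% of tested genes), again with a median of 0.02. Without E1-KO replicate 1 the E1-KO counts were 18 and 21, and without WT replicate 2 they were 16 and 24; without WT replicate 1 they were 22 and 23 in E1-KO and 22 and 19 in E2-KO, and without WT replicate 2 those of E2-KO were 14 and 23. Set directly against E1-KO, 176 members were lower in E3-KO (16.4% of tested genes) and 3 were higher (9.41% of tested genes), with a median of -0.65. Against E2-KO, 170 were lower (10.1% of tested genes) and 1 was higher (5.48% of tested genes), with a median of -0.67. These comparisons share the E3-KO samples with the one against WT. In all 3 of them, 128 members were called lower, which is 58.2% of the members; over all tested genes the share was 5.7%.

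The drop had no gap along the chromosome. The members run from position 3498382 to 149335663 of GRCm38, and in each of the 15 consecutive stretches of 10 Mb the median change in E3-KO was negative, from -0.33 between 50 and 60 Mb to -0.72 between 100 and 110 Mb. The stretch between 80 and 90 Mb held the most members, 38, and had a median of -0.61 with 25 members lower. Single genes inside a stretch differed far more than the stretches did: between 50 and 60 Mb the changes ran from -1.50 for Hibadh to 0.80 for Hnrnpa2b1.

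Just inside the level threshold were Pcgf1 (mean 20.1 FPKM, log2 change -1.42), Tmem43 (20.3 FPKM, -0.65) and Vps50 (20.8 FPKM, -0.24), and just outside Abcg2 (19.6 FPKM, -0.38), Caprin2 (19.2 FPKM, -0.95) and Etv6 (18.8 FPKM, -0.16). Against WT the drop was smaller the higher a member was expressed: the median was -0.76 for 58 members of 20 to 30 FPKM, -0.64 for 71 members of 30 to 60 FPKM, -0.48 for 54 members of 60 to 120 FPKM and -0.38 for 37 members above 120 FPKM. Genes of other chromosomes showed a slope of the same sign, from -0.17 in the lowest of these classes to 0.10 in the highest. Against E1-KO the 4 medians of the members lay between -0.69 and -0.64, and against E2-KO between -0.71 and -0.62.

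**Figure D2:**
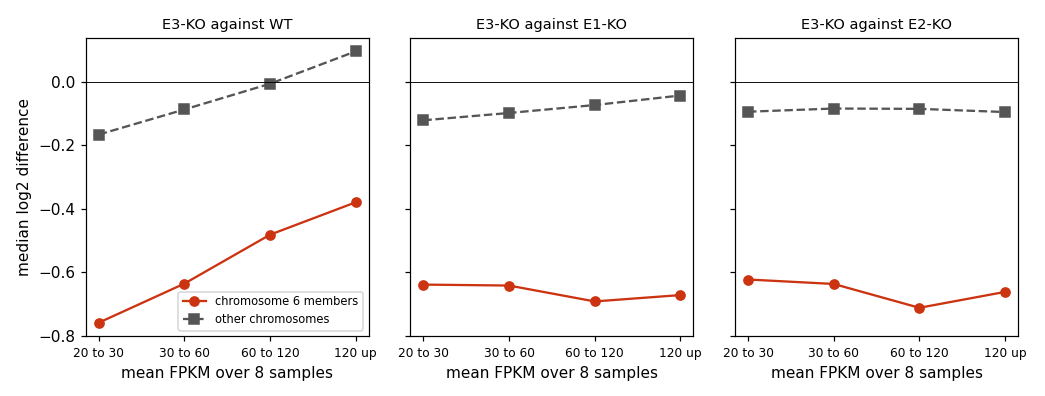
Median log2 difference (vertical axis) of members and of equally expressed genes of other chromosomes in 4 classes of mean FPKM (horizontal axis), for E3-KO against WT, E1-KO and E2-KO. Against WT both lines climb with expression, from -0.76 to -0.38 for the members, and against E1-KO and E2-KO the line of the members stays between -0.71 and -0.62.

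To ask which members left the common course, the median log2 ratio to WT of the tested genes of the same chromosome was taken off each sample (for chromosome 6, -0.57 and -0.66 in the E3-KO samples), and the fit was repeated. A member is called above the chromosome (it escaped the drop against WT) or below it (it fell further against WT) where the remaining difference passed an adjusted p-value of 0.05. Against WT, 49 members were above (20.3% of all tested genes were above the median of their own chromosome), 46 were below (20.4% of tested genes) and 125 were not called. These shares are near the background of all genes, and the standard deviation of the members' changes, 0.46, was inside the range of the other chromosomes, 0.44 to 0.67. The classes went with expression level. Of 58 members of 20 to 30 FPKM, 8 were above and 21 below, and of 37 members above 120 FPKM, 12 were above and 3 below. Genes of other chromosomes did likewise: 204 above and 253 below of 1123 in the lowest class, 219 and 62 of 568 in the highest. Of the 49 above, 38 did not pass the test against WT, 7 rose and 4 fell (Tra2a, Tigar, Ybx3 and Resf1, all by less than the chromosome). Without WT replicate 1 the counts were 26 above and 29 below, without WT replicate 2 they were 26 and 25, and without E3-KO replicate 2 they were 33 above and 42 below.

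The 7 members that rose hold 2 RNA genes, 2 chromatin genes, a DNA polymerase subunit, a signalling gene and a putative nuclease. Hnrnpa2b1, the gene of an RNA-binding protein of splicing and RNA transport (51460932 to 51469894, minus strand), was at 198 and 190 FPKM in WT and at 291 and 393 FPKM in E3-KO. Both E3-KO values were above both WT values, and the log2 change was 0.80 (SE 0.19, adjusted p = 0.00882) against WT and 1.42 (adjusted p = 0.000934) relative to the chromosome. E1-KO had 527 and 521 FPKM and E2-KO 541 and 369 FPKM, so that E3-KO was lower than E1-KO (-0.63, adjusted p = 0.0392). Ints13, a subunit of the Integrator complex that trims small nuclear RNAs, followed the same order, with 34.3 and 38.9 FPKM in WT, 54.8 and 73.0 in E3-KO, 109 and 96.6 in E1-KO and 92.3 and 69.0 in E2-KO. Its log2 change against WT was 0.78 (SE 0.17, adjusted p = 0.00631). It overlaps Fgfr1op2 on the other strand, and the use of strand in counting is not given in the sources used here, which leaves both genes uncertain.

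Chd4, the ATPase of the NuRD remodelling complex that represses transcription (125095981 to 125130591, plus strand), was at 91.5 and 97.9 FPKM in WT and at 170 and 148 FPKM in E3-KO. Its level in E3-KO was inside the range of E1-KO (148 and 187 FPKM) and E2-KO (137 and 219 FPKM), and the change against WT was 0.74 (SE 0.20, adjusted p = 0.0169). Tcf7l1, a repressor at Wnt targets that limits self-renewal in stem cells, had 33.6 and 35.4 FPKM in WT, 40.6 and 56.6 in E3-KO and 57.5 to 63.3 in the other knockouts. The change against WT was 0.47 (SE 0.14, adjusted p = 0.0272). Pole4, a small subunit of DNA polymerase epsilon, rose by 0.29 (SE 0.10, adjusted p = 0.0425), from 79.0 and 70.9 FPKM to 89.9 and 93.9 FPKM, and stood at 148 to 180 FPKM in the other knockouts.

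Rtkn, a signalling gene, rose from 29.5 and 26.9 FPKM to 41.6 and 36.3 FPKM (log2 change 0.45, SE 0.12, adjusted p = 0.0155). It went the other way in E1-KO, at 18.02 and 15.8 FPKM, so the groups of E3-KO and E1-KO lay farthest apart for this gene. Tatdn2, which codes for a putative nuclease, rose from 19.6 and 21.5 to 29.2 and 29.1 FPKM (0.49, SE 0.09, adjusted p = 0.00333). Of the 7, Tatdn2 and Ints13 kept their call against WT without any single replicate of WT or E3-KO. The other 5 lost it: Pole4 without any of the 4 (adjusted p 0.0625 to 0.269), Chd4 without E3-KO replicate 1 or either WT replicate (0.0642 to 0.0865), Tcf7l1 without E3-KO replicate 2 or either WT replicate (0.0877 to 0.131), and Hnrnpa2b1 without E3-KO replicate 2 or WT replicate 2 (0.0563 and 0.0595). Rtkn lost it without E3-KO replicate 1 or WT replicate 2 (adjusted p = 0.0767 and 0.113).

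The other 5 of the 12 members farthest above the chromosome were Cald1, Bms1, H2afj, Kdm3a and Cycs, which did not pass the test against WT. Cald1, the actin-binding caldesmon, had 58.7 and 55.9 FPKM in WT and 63.7 and 85.0 in E3-KO. Bms1, a GTPase of small ribosomal subunit assembly, had 36.2 and 37.8 FPKM in WT and 39.3 and 48.3 in E3-KO. Kdm3a, a histone H3 lysine demethylase, had 72.4 and 71.8 FPKM in WT and 82.5 and 77.7 in E3-KO. Their differences relative to the chromosome were 0.97, 0.85 and 0.77. Cycs, cytochrome c, was at 47.9 FPKM in both WT samples and at 47.2 and 55.7 FPKM in E3-KO, and it has processed copies elsewhere in the genome whose reads may be shared with it.

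**Figure D3:**
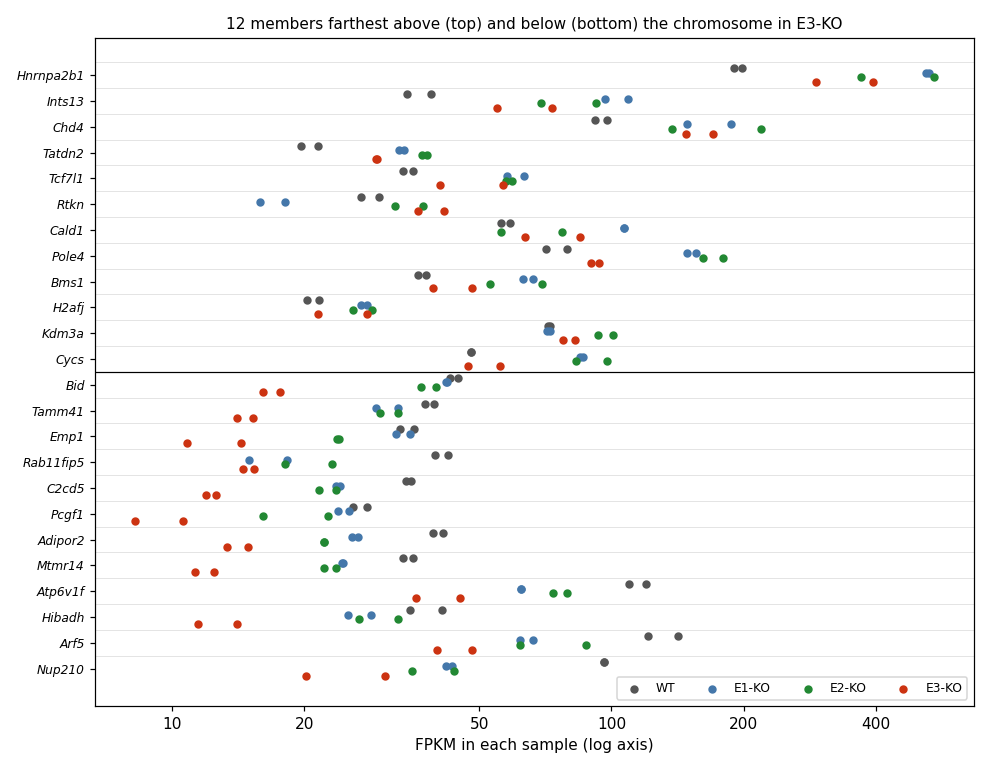
FPKM in each of the 8 samples (horizontal log axis) of the 12 members farthest above and the 12 farthest below the chromosome in E3-KO against WT (rows). In the lower block both E3-KO points lie left of both WT points for every gene; in the upper block most E3-KO points lie right of WT but left of, or among, the E1-KO and E2-KO points.

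Among the 12 members that fell furthest below the chromosome were genes of membranes, vesicles and mitochondria, and a nuclear pore gene was the lowest. Nup210, a membrane-anchored nucleoporin (91013068 to 91116829, minus strand), had 96.3 and 96.0 FPKM in WT and 20.2 and 30.5 in E3-KO. The log2 change was -1.91 (SE 0.18, adjusted p = 0.000119), and -1.29 (adjusted p = 0.00125) relative to the chromosome. It was low in the other knockouts as well, at 42.0 and 43.3 FPKM in E1-KO and 35.2 and 43.9 FPKM in E2-KO.

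Arf5, a small GTPase of Golgi membranes, fell from 121 and 141 FPKM to 48.1 and 39.98 FPKM, which was 33.5% of WT. E1-KO stood at 66.4 and 61.9 FPKM, E2-KO at 62.0 and 87.7 FPKM, so the 3 knockouts were all below WT. Rab11fip5, an adaptor of recycling endosomes, likewise had 39.7 and 42.4 FPKM in WT, 14.5 and 15.4 in E3-KO, 15.0 and 18.3 in E1-KO and 18.1 and 23.1 in E2-KO. E3-KO did not pass the test against E1-KO for this gene (-0.14, adjusted p = 0.496). C2cd5, a protein of vesicle fusion at the cell surface, fell from 34.1 and 35.0 FPKM to 12.6 and 11.9 FPKM.

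Hibadh, a mitochondrial enzyme of valine breakdown, fell from 34.8 and 41.1 FPKM to 14.1 and 11.46 FPKM. Tamm41, which makes a precursor of the mitochondrial lipid cardiolipin, fell from 39.4 and 37.7 to 14.1 and 15.3 FPKM. Bid, a BCL-2 family protein that starts the mitochondrial route of cell death, fell from 44.6 and 42.9 to 17.6 and 16.1 FPKM. All 3 stood at 33.6% to 38.5% of WT, and relative to the chromosome they were lower by log2 differences of -0.89, -0.72 and -0.71.

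Signalling and surface genes were also among the 12. Adipor2, an adiponectin receptor, had 39.2 and 41.3 FPKM in WT and 13.3 and 14.8 in E3-KO. Mtmr14, a phosphoinositide phosphatase, had 33.5 and 35.3 FPKM in WT and 12.5 and 11.3 in E3-KO. Emp1, a membrane protein of the claudin-like family, had 33.0 and 35.5 FPKM in WT and 14.4 and 10.8 in E3-KO. Pcgf1, the subunit that defines the Polycomb complex PRC1.1, fell from 27.8 and 25.8 to 10.6 and 8.25 FPKM (log2 change -1.42, SE 0.17, adjusted p = 0.000311). Atp6v1f, a subunit of the proton pump V-ATPase, fell from 110 and 120 to 45.2 and 35.9 FPKM (-1.49, SE 0.12, adjusted p = 8.55e-05).

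The same question was put to E3-KO against the other lines, in comparisons that share the E3-KO samples with the one against WT. Of the 49 members above against WT, 10 were also called above against E1-KO and 7 against E2-KO. Of the 46 below against WT, 18 were also called below against E1-KO and 9 against E2-KO. Relative to the chromosome, E3-KO against E1-KO gave 16 members above (11.9% of tested genes) and 35 below (9.91% of tested genes), and against E2-KO 8 above (6.53% of tested genes) and 15 below (5.07% of tested genes). These counts depended on single replicates: without E1-KO replicate 1 the comparison with E1-KO gave 6 above and 4 below, without E1-KO replicate 2 it gave 8 and 11, and without E3-KO replicate 1 it gave 16 and 13. Against E2-KO, the counts were 5 above and 6 below without E2-KO replicate 1, 11 above and 22 below without E2-KO replicate 2, and 5 above and 10 below without E3-KO replicate 2.

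Called above in all 3 comparisons, which share the E3-KO samples, were Peg10, Wasl, Zc3hav1 and Rtkn. These and the 8 genes below were singled out after their values were seen. The share of all tested genes called in all 3 comparisons is not given here, so nothing is read from their number. Relative to the chromosome, Peg10 was higher in E3-KO by 0.68, 1.01 and 1.43 against WT, E1-KO and E2-KO. Wasl, the N-WASP activator of actin branching, was within 24.6 and 31.2 FPKM in all 8 samples, with relative differences of 0.53, 0.32 and 0.49. Its level in E3-KO was 93.9% of WT. With all genes above 0 in the fit, Peg10 and Wasl were no longer called above the chromosome against WT (0.32 and 0.17, adjusted p = 0.0654 and 0.153). Neither was Zc3hav1, which came to 0 (adjusted p = 0.998). Zc3hav1, an antiviral zinc-finger protein that binds RNA, was at 49.03 and 51.6 FPKM in WT, 39.6 and 44.4 in E3-KO, 29.6 and 33.1 in E1-KO and 35.4 and 33.4 in E2-KO. Its difference from the chromosome against WT, 0.36, lost the call without E3-KO replicate 2 or either WT replicate (adjusted p 0.0892 to 0.133).

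Called below in all 3 were Pot1a, Hibadh, Tia1, Trnt1, Mtmr14, Tamm41, Bid and Rad51ap1. Tia1, an RNA-binding protein of stress granules, had 22.5 and 24.9 FPKM in WT, 8.73 and 10.5 in E3-KO, 37.7 and 31.7 in E1-KO and 24.1 and 23.2 in E2-KO. Pot1a, which caps telomeres, had 40.9 and 39.97 FPKM in WT, 33.8 to 36.4 in the other knockouts and 16.2 and 18.1 in E3-KO. Trnt1, the enzyme that adds the CCA end to transfer RNAs, had 43.1 and 45.2 FPKM in WT, 35.0 to 43.1 in the other knockouts and 16.7 and 17.6 in E3-KO. For these 3 genes both E3-KO samples were below all 6 other samples. Rad51ap1, a gene of DNA repair, fell from 22.9 and 23.2 to 12.1 and 11.3 FPKM, and its relative difference against WT, -0.31, lost the call without any single WT or E3-KO replicate (adjusted p 0.059 to 0.134). Tia1 lost it without WT replicate 2 (adjusted p = 0.0617).

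By function, 214 members could be put in 13 lists. In E3-KO against WT every list of more than 2 members had a median below 0, so the lists differ in degree. Among lists of more than 4 members, the deepest medians were those of the secretory pathway (-0.77 over 34 members), metabolic enzymes and transporters (-0.76 over 14), the cytoskeleton and cell surface (-0.73 over 17) and signalling (-0.69 over 16). The shallowest were those of ribosome biogenesis (-0.40 over 6), RNA splicing and binding (-0.47 over 28), ubiquitin and chaperones (-0.48 over 14) and chromatin and transcription (-0.49 over 32). The median of all members was -0.58, and no test of one list against another was made. The lists were not matched for expression level, with which the change against WT and the classes went. Over all members, 69.5% fell and 3.18% rose against WT, and 22.3% were above the chromosome and 20.9% below. For all tested genes these shares were 30.8%, 13.9%, 20.3% and 20.4%. The counts for each list given below are to be read beside these shares.

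That order did not carry over to the other lines. Against E1-KO the RNA list had a median of -0.76, ribosome biogenesis -0.76 and the secretory list -0.55. RNA genes had a median of 0.25 and ribosome biogenesis genes of 0.40 in E1-KO against WT, and secretory genes of -0.23. In E2-KO the same 3 medians were 0.12, 0.44 and -0.24. The DNA replication and repair list had the deepest median of the larger lists against both E1-KO (-0.96 over 16 members) and E2-KO (-0.83), beside -0.68 against WT.

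**Figure D4:**
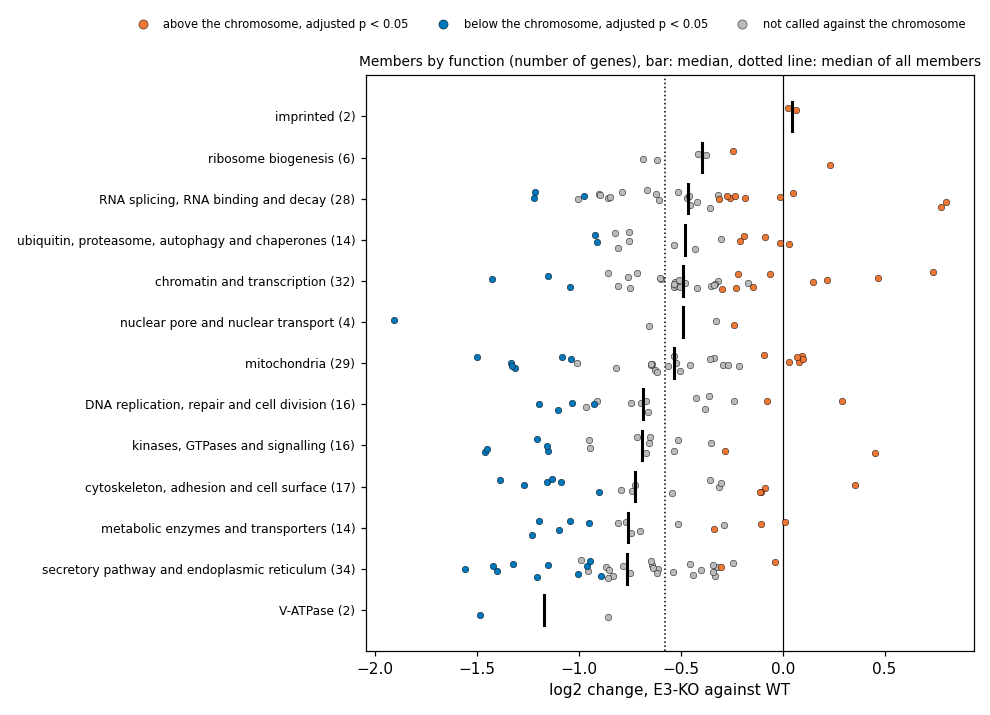
Log2 change in E3-KO against WT (horizontal axis) of each member in its function list (rows, number of members in brackets); black bars are list medians and the dotted line is the median of all members, -0.58. Orange points, called above the chromosome, number 9 of 28 in the RNA list and 9 of 32 in the chromatin list, and blue points, called below, 10 of 34 in the secretory list. Over all members 22.3% were above and 20.9% below.

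Of the 34 secretory members, 27 fell, none rose and 7 did not pass the test; 2 were above the chromosome and 10 below. The 10 include Sec61a1, the pore of the translocon through which new proteins enter the endoplasmic reticulum, which fell from 95.3 and 98.4 to 51.4 and 48.2 FPKM. Rpn1, a subunit of the complex that glycosylates those proteins, fell from 151 and 164 to 86.6 and 74.5 FPKM. The coat genes Copg1 and Copg2, of vesicles that return to the endoplasmic reticulum, fell from 64.4 and 67.1 to 36.9 and 33.0 FPKM and from 44.6 and 46.7 to 19.0 and 16.3 FPKM. Nearest the chromosome was Tmf1, a Golgi matrix protein, at 64.1% of WT. Relative to the chromosome, Sec61a1 lost its call without either WT replicate (adjusted p = 0.0789 and 0.103), and Rpn1 and Copg1 without either WT replicate or E3-KO replicate 2 (adjusted p 0.0766 to 0.197).

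Of the 28 RNA genes, 19 fell and 2 rose, and 9 were above the chromosome and 3 below. Besides Hnrnpa2b1 and Ints13, the 9 include Snrpg, a core protein of spliceosomal particles, with 256 and 244 FPKM in WT and 275 and 244 in E3-KO. Snrpg stood higher in the other knockouts, at 411 and 356 FPKM in E1-KO and 597 and 467 FPKM in E2-KO. The 3 below were Tia1, Snd1 and Pcbp1. Lsm5, of the ring that binds U6 RNA and decaying messages, went from 65.2 and 66.1 to 55.5 and 55.9 FPKM, while Lsm8 of the nuclear form of that ring fell from 51.3 and 53.9 to 32.2 and 20.6 FPKM. Eefsec, the elongation factor for selenocysteine, lay nearest the chromosome at 63.6% of WT. Without either WT replicate or E3-KO replicate 2, Lsm5 was no longer called above the chromosome.

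Of the 32 chromatin genes, 21 fell and 2 rose (Chd4 and Tcf7l1), and 9 were above the chromosome and 3 (Pcgf1, Setd5 and Ing4) below. Resf1, Atf7ip, Smyd5 and Kdm3a, all with roles in silencing or histone methylation, were among the 9. Among Polycomb genes, Ezh2, the methyltransferase of PRC2, had 136 and 128 FPKM in WT and 92.5 and 149 in E3-KO, overlapping groups, while Aebp2, an accessory PRC2 subunit, fell from 132 and 136 to 96.4 and 91.6 FPKM. Rybp, a PRC1 subunit, fell from 49.2 and 52.5 to 31.8 and 34.4 FPKM and differed from the chromosome by 0.01. Against the other lines Ezh2 was lower than in E1-KO (249 and 225 FPKM, difference -1.0045, adjusted p = 0.00788), and did not pass the test against E2-KO.

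Of 29 mitochondrial genes, 18 fell and none rose, and 6 were above the chromosome and 6 below. Over all members 22.3% were above and 20.9% below, so these counts are near the common share. The 6 above are parts of the respiratory chain, the inner membrane and mitochondrial gene expression: Ndufa5 of complex I, Chchd3 of the cristae, Cycs, the DNA-binding Ssbp1, and the ribosomal proteins Mrpl19 and Mrpl51. Their log2 changes against WT were between -0.09 and 0.10, none of which passed the test. The 6 below, Agk, Malsu1, Hibadh, Trnt1, Tamm41 and Bid, changed by -1.04 to -1.50. Ptcd3, a protein of the small mitochondrial ribosome, was nearest the chromosome, at 64.8% of WT.

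In the DNA list 12 of 16 members fell and Pole4 rose. Mcm2, of the replicative helicase, fell from 213 and 219 to 164 and 168 FPKM, a call that was lost without either WT replicate (adjusted p = 0.0562 and 0.0801) and after median-ratio scaling (0.0993). Cdca3, a cell-cycle ubiquitin adaptor, fell from 213 and 205 to 122 and 143 FPKM, with the call lost without WT replicate 1 (adjusted p = 0.0508). Among metabolic enzymes, 11 of 14 fell. Lpcat3, which remodels membrane phospholipids, fell from 56.7 and 49.2 to 24.7 and 19.5 FPKM, whereas Akr1b3, aldose reductase, had 74.8 and 73.6 FPKM in WT and 77.8 and 71.8 in E3-KO. Gars, the glycyl-tRNA synthetase, lay near the chromosome at 61.3% of WT. Below the chromosome, the call for Lpcat3 was lost without E3-KO replicate 2 or WT replicate 1 (adjusted p = 0.102 and 0.117).

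In the cytoskeleton list 11 of 17 members fell and none rose, with 4 above the chromosome and 6 below. Brk1, a small subunit of the WAVE complex that drives actin branching, fell from 126 and 130 to 62.5 and 53.3 FPKM. Mtpn, which loosens capping protein from actin, lay near the chromosome at 67.9% of WT. Of 16 signalling genes 14 fell and Rtkn rose.

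Of 14 ubiquitin and chaperone genes 8 fell, and 5 were above the chromosome. Fkbp4, a co-chaperone of HSP90, had 303 and 311 FPKM in WT and 289 and 320 in E3-KO, and Kcmf1, a ubiquitin ligase, 67.6 and 63.5 and 68.8 and 65.2 FPKM. Usp5, a deubiquitinase, fell to 68.5% of WT. Of the 6 ribosome biogenesis genes 4 fell; Bms1 and Ddx47 were the 2 that did not, and Emg1, a ribosomal RNA methyltransferase, fell from 123 and 109 to 84.1 and 67.0 FPKM, a call lost without WT replicate 1 (adjusted p = 0.0502). Of the 4 nuclear transport genes, Tnpo3, which imports splicing factors, fell to 63.0% of WT, and Ipo8 was called above the chromosome at 84.7% of WT, a call lost without either WT replicate or E3-KO replicate 2 (adjusted p 0.112 to 0.226).

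The 3 members with the highest mean level stood at 82.2% to 92.8% of WT in E3-KO. Tmsb10, thymosin beta 10, which holds actin monomers, had a mean of 1184 FPKM; it was at 1115 and 1080 FPKM in WT and 1004 and 1033 in E3-KO. Bcat1, which starts the breakdown of branched amino acids, was at 687 and 657 and at 610 and 495 FPKM. Phb2, a prohibitin of the mitochondrial inner membrane, was at 419 and 454 and at 398 and 353 FPKM. All 6 E3-KO values were below the WT values of their gene, and none of the 3 genes passed the test against WT (adjusted p = 0.525, 0.166 and 0.292). Against E1-KO, where Phb2 was at 631 and 696 FPKM, it was lower in E3-KO (-0.82, adjusted p = 0.006).

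Over the comparisons of E3-KO with WT, E1-KO and E2-KO, 20 members were never called lower (share of all tested genes not given). They were Peg10, Rtkn, Chd4, Tcf7l1, Kdm3a, H2afj, Cecr2, Zc3hav1, Wasl, Tmsb10, Capza2, Dctn1, Vps50, Exoc6b, Necap1, Impdh1, Bcat1, Mrps33, Kcmf1 and Mkrn1. Missing the threshold does not place them at the WT level: Exoc6b, of the exocyst tether, was at 45.6 and 48.8 FPKM in WT and 31.5 and 44.6 in E3-KO, and Cecr2, a chromatin remodelling subunit, at 32.8 and 36.5 and 18.9 and 29.99 FPKM. Mrps33, of the mitochondrial ribosome, had 39.3 and 28.7 FPKM in WT and 37.7 and 18.4 in E3-KO, so a wide spread between replicates went with the missing call. By contrast Kcmf1, Wasl and Kdm3a had E3-KO means of 102%, 93.9% and 111% of WT with replicates close to each other.

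The imprinted members Peg10 and Mest did not pass the test in E3-KO against WT. Peg10, a gene of retrotransposon origin needed for the placenta, had 40.3 and 41.5 FPKM in WT, 48.0 and 38.1 in E3-KO, 30.6 and 32.0 in E1-KO and 23.4 and 21.8 in E2-KO. E3-KO overlapped WT (log2 change 0.06, adjusted p = 0.691) and was above E2-KO (0.89, adjusted p = 0.00223). Mest, a hydrolase-like protein, had 31.8 and 31.9 FPKM in WT and 29.96 and 34.99 in E3-KO (0.02, adjusted p = 0.912), but 91.4 and 74.0 in E1-KO and 92.5 and 68.5 in E2-KO. Mest in E3-KO thus overlapped WT and was lower than in both other knockouts (-1.32 and -1.27, adjusted p = 0.000655 and 0.00176). Its place above the chromosome against WT was lost without either WT replicate or E3-KO replicate 2 (adjusted p 0.0619 to 0.081).

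Sgce, which is imprinted like Peg10 and starts 99 bases from it on the other strand, is below the level for membership; it fell from 10.6 and 10.9 to 5.24 and 2.84 FPKM (log2 change -1.26, adjusted p = 0.00281), and was at 4.52 and 5.73 FPKM in E1-KO and 2.81 and 4.10 FPKM in E2-KO. Copg2 overlaps the end of Mest on the other strand and fell to 38.7% of WT. With the use of strand in counting not given in the sources used here, reads of the overlapping stretch of Mest and Copg2 could not be assigned. In all, 44 members overlap another gene listed in the files.

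Members that serve in a complex could be set beside subunits from other chromosomes. For 23 complexes or small families, 29 members were compared with 93 partner genes, whose median change in E3-KO against WT was -0.13 (23 lower and 19 higher). Of well expressed genes of other chromosomes, 27.1% were lower and 18.1% higher. The median of the 29 members was -0.65, with 20 lower and 1 higher. Of all 220 members 69.5% were lower and 3.18% higher, and of all tested genes 30.8% and 13.9%. In 28 of the 29 cases the member lay below the median of its partners, Chd4 being the exception, and in 19 it lay below every partner. The median difference between member and partners was -0.46 in E3-KO, beside -0.03 in E1-KO, where 15 members were below their partners' median, and 0.06 in E2-KO, where 13 were. The members were picked from a chromosome known to be low in E3-KO, so this is a description of the proportions and not a test.

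**Figure D5:**
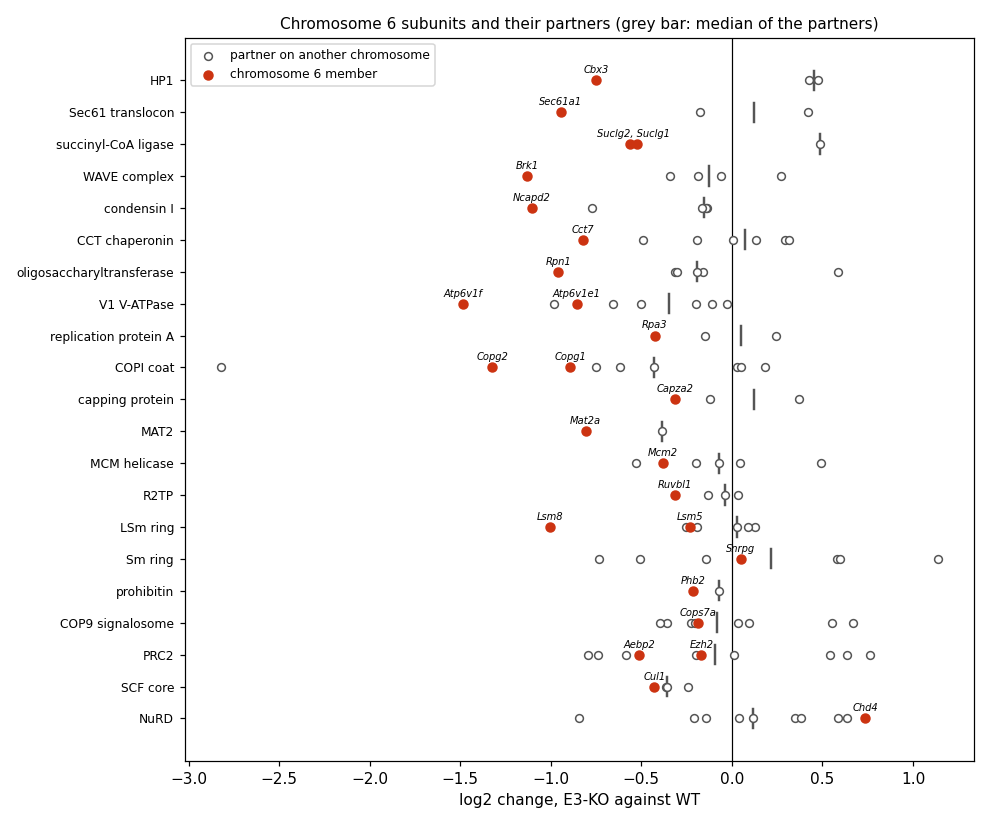
Log2 change in E3-KO against WT (horizontal axis) of members (filled points) and of partner genes on other chromosomes (open points) in 21 complexes or families (rows), with grey bars at the partners' medians. The filled points lie left of the grey bar in every row but that of NuRD, where Chd4 is at 0.74 and the partners' median at 0.12.

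The widest gap was in the HP1 family, which binds methylated histone H3. Cbx3 (HP1 gamma) fell from 106 and 97.4 to 58.5 and 61.5 FPKM, a log2 change of -0.75, while Cbx1 and Cbx5 rose by 0.47 and 0.43 (adjusted p = 0.0452 and 0.00592). The partners rose in the other lines too: in E1-KO and E2-KO against WT, Cbx1 rose by 1.01 and 0.65 and Cbx5 by 0.65 and 0.37. Cbx3 changed there by 0.29 and 0.08 and lay below both partners. Cbx3 has many processed copies in the genome, with which reads may be shared. In the succinyl-CoA ligase of the citric acid cycle, Suclg1 fell by 0.53 and Suclg2 by 0.56, and the partner Sucla2 rose by 0.49 (adjusted p = 0.00721). Sucla2 also rose in E1-KO and E2-KO, by 0.55 and 0.63, where Suclg1 changed by 0.05 and 0.20 and Suclg2 by 0.50 and 0.09. Sec61a1 changed by -0.95 beside 0.42 for Sec61b and -0.17 for Sec61g, neither of which passed the test.

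In condensin I, which compacts chromosomes for division, Ncapd2 fell from 101 and 105 to 45.9 and 49.02 FPKM (-1.10), Ncapg fell by 0.77 and Smc2, Smc4 and Ncaph changed by -0.14, -0.14 and -0.17 without passing the test. In the WAVE complex Brk1 changed by -1.13, and the 4 partners ran from -0.34 to 0.27. The chaperonin subunit Cct7 fell from 235 and 242 to 139 and 129 FPKM (-0.82), where its 6 partners had a median of 0.07 and ran from -0.49 to 0.31. In the V-ATPase, Atp6v1f was at -1.49 and Atp6v1e1 at -0.86, and the 6 partners had a median of -0.35 with 3 lower.

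The gap was narrow for Ezh2, Cops7a, Phb2 and Snrpg, which lay below their partners' medians by log2 differences of -0.07, -0.10, -0.15 and -0.17. The SCF scaffold Cul1, at -0.43, was close to its partners, with a median of -0.36, and its call was lost without WT replicate 2 (adjusted p = 0.0846) and after median-ratio scaling (0.0741). Mat2a, which makes S-adenosylmethionine, fell by 0.81 and its regulatory partner Mat2b by 0.38. Ruvbl1, Rpa3 and Capza2, with changes of -0.32, -0.43 and -0.31, lay below all their partners but did not pass the test.

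Of 74 adjacent pairs of members within 50 kb of each other, 42 lay on the same side of the members' median. In 6 pairs both genes were above or both below the chromosome (Arf5 and Snd1, Capg and Tgoln1, Rtkn and Dctn1, Bid and Mical3, Mlf2 and Cops7a, Ints13 and Fgfr1op2), and in 5 pairs one was above and the other below (Mest and Copg2, Tcf7l1 and Tgoln1, Snrpg and Tia1, Chd4 and Ing4, Mrpl51 and Ncapd2). Ing4, a reader of methylated histone H3 that lies next to Chd4, fell from 47.0 and 45.4 to 20.3 and 20.2 FPKM while Chd4 rose.

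Genes that start back to back share one stretch of promoter DNA. By the GENCODE annotation 10 pairs of members start within 1000 bases of each other on opposite strands. In 7 of them both genes fell. In 6 both were in the same class relative to the chromosome, which in each case was that of genes not called. Of single members, 69.5% fell and 56.8% were not called relative to the chromosome. Those are shares of genes and not of pairs, and the share for other pairs of members is not given here. Whether such pairs change together was not tested. In 1 pair the classes were opposite: Mrpl51 was at 59.6 and 68.8 FPKM in WT and 67.7 and 66.6 in E3-KO (log2 change 0.07, adjusted p = 0.781), and Ncapd2, which starts 100 bases away, fell by 1.10 (adjusted p = 8.79e-05). Cbx3 and Hnrnpa2b1, 466 bases apart, went opposite ways against WT, -0.75 and 0.80. In Golt1b, a Golgi transport gene, and the helicase gene Recql, 134 bases apart, both fell, by 0.99 and 0.75.

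The DNA between the starts of these 3 pairs is shown because it is the sequence each pair shares, whether its genes parted or fell together. Bases are from RefSeq promoters of build GRCm38.p6, plus strand, 5′ to 3′, cut to what lies between the starts in both RefSeq and GENCODE, with the dinucleotide CG in capitals. The stretches are chr6:125191702-125191800 (Ncapd2 and Mrpl51), chr6:51469895-51470144 (Hnrnpa2b1 and Cbx3, the part next to Hnrnpa2b1) and chr6:142387088-142387220 (Recql and Golt1b).
Ncapd2 and Mrpl51: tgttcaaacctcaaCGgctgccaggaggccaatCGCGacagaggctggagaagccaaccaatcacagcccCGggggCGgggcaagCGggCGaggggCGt
Hnrnpa2b1 and Cbx3: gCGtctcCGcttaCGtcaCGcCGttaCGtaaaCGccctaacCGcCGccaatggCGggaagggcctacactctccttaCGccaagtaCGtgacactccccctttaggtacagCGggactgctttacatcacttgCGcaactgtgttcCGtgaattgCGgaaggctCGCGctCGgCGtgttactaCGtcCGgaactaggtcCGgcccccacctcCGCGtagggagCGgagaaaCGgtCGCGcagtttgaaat
Recql and Golt1b: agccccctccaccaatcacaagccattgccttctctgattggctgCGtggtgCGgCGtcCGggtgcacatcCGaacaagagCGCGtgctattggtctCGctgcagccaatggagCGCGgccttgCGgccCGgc

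All 3 stretches are rich in CG, with 8 in 99 bases, 29 in 250 bases and 12 in 133 bases. Over 186 members with a RefSeq promoter, the median was 17 CG in the 250 bases before the start, where 27025 genes, 1 promoter each, had a median of 6. The 27025 genes were not filtered by expression as the members were, and their first listed promoter was taken rather than the nearest. The medians are thus of unlike sets, and well expressed genes of other chromosomes were not measured. Members above the chromosome had a median of 20, members below it 16.5 and the others 16. The box CCAAT, read on either strand (CCAAT or ATTGG), occurs 2, 1 and 4 times in the 3 stretches. Of the matched members above the chromosome 18 of 45 held it in the 250 bases (40%), of those below 10 of 38 (26.3%) and of the others 45 of 103 (43.7%). Of the 27025 promoters, again not filtered by expression, 34.5% held it. A match of letters is a description of the window and not a binding site.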

How the data were processed

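Total RNA of 8 samples was sequenced as paired-end reads of 150 bases after preparation with a total RNA library kit, per the labels' protocols. The submitters' processing notes name Trimmomatic 0.36, TopHat2 2.0.12, Cufflinks 2.2.1 and build mm9; the annotation and the use of strand are not given in the sources used here. The authors deposited 1 table of gene identifiers and values per sample, taken as FPKM from the named tools and the values. The files hold no coordinates, and positions are those of GENCODE M21 on GRCm38, matched by Ensembl identifier. Each file has 18774 rows; of 660 identifiers with more than 1 row, 575 kept the 1 row that stood where the order of genes places it, and 85 were left out. No member is such an identifier.

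The 11272 genes averaging 1 FPKM or more were fitted as log2(FPKM + 1) with limma 3.58.1 (R 4.3.3; lmFit and eBayes with a trend, all 8 samples, group as the only term, 4 residual degrees of freedom), two-sided, with Benjamini-Hochberg adjustment over all tested genes. Low genes have understated changes on this scale. The second fit was centred: each sample's ratios to WT had their median over tested genes of the same chromosome subtracted. Replicates were numbered by the labels; the alternatives tried were a replicate block, fitting 2 groups alone, 3 other scalings, limma without trend, 2 other filters, a pseudocount of 0.1, a mean in place of the chromosome median, members of at least 50 FPKM and leaving out each replicate. The centred fit was tested on simulated data. With 200 genes changed, it called 0% of planted log2 changes of 0.5, 79.5% of those of 1 and 98% of those of 2. With 40% of genes changed by 0.5, it called 68.1% of them, and 3.4% of its calls were of unchanged genes. A member that was not called may therefore still differ from its chromosome.

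The members, the function lists and the complexes were chosen with earlier results of these data known, and 27 members were added to the lists once membership was known. Genes named were up to 12 farthest above and below the chromosome among those called, in each list the 2 farthest from and the 1 nearest to the chromosome, all members of a listed complex, the 3 most expressed, and 3 on each side of the level threshold; other names were picked after their values were seen. Symbols came from a gene name table. Promoters came from RefSeq, GRCm38.p6. Plots used matplotlib 3.10.9 (Python 3.11.15). The values of a few members are not reported here, and counts over the members include them.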

Additional observations from a re-analysis of the deposited data

Results flagged for a closer look

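In the direct comparisons between knockout lines, 176 members were lower in E3-KO than in E1-KO (16.4% of all tested genes were) and 170 were lower than in E2-KO (10.1% of tested genes; limma, adjusted p-value under 0.05). Both comparisons use the same E3-KO samples, and the chromosome was picked for its low level in them, so nothing is read from these counts.

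Relative to the chromosome, 12 members differed between E3-KO and each of the other 2 lines as well as WT. These comparisons share the E3-KO samples, and the share of all tested genes that differed in all of them is not given here. Nothing is therefore read from the number of these members. The log2 differences of E3-KO from E1-KO and from E2-KO were 1.01 and 1.43 for Peg10, 0.32 and 0.49 for Wasl, 0.98 and 0.82 for Zc3hav1, and 1.73 and 0.71 for Rtkn. They were -0.47 and -0.44 for Pot1a, -0.45 and -0.61 for Hibadh, -1.18 and -0.67 for Tia1, and -0.52 and -0.59 for Trnt1. The last 4 were Mtmr14 with -0.41 and -0.35, Tamm41 with -0.45 and -0.49, Bid with -0.70 and -0.60, and Rad51ap1 with -0.70 and -0.45. These 12 were found in the same samples that define the classes, so no other sample checks them. Groups of 2 samples are too small for a test of single outlying samples, and none was made.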

How the results depend on the processing

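The drop of the members in E3-KO kept its direction under every alternative. Its median against WT (-0.58) was -0.504 after quantile normalization, -0.409 after median-ratio scaling and -0.521 after scaling without the 50 highest genes; these scalings moved the median of all tested genes by 0.143, 0.157 and 0.055. Members of at least 50 FPKM (112) had a median of -0.447 with 72 lower. Against E1-KO the 3 scalings gave -0.548, -0.547 and -0.571, and against E2-KO -0.549, -0.584 and -0.555, with 2 members higher under quantile normalization and under scaling without the 50 highest. The E1-KO and E2-KO medians against WT became 0.09 and 0.106 after median-ratio scaling, and that of E2-KO -0.035 after scaling without the 50 highest; the share of calls that were higher in E2-KO, 54.7%, was then 70.1% and 44.3%.

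Relative to the chromosome, with all genes above 0, genes near 0 enter the chromosome median by construction: against WT 13 members were above and 105 below (median -0.322), against E1-KO 6 and 107 (-0.399) and against E2-KO 2 and 88 (-0.43). This lowers all members alike: of the genes named by rule, 14 crossed to the other sign, of which Aebp2 (-0.253), Mtpn (-0.286), Rybp (-0.346), Tmf1 (-0.358) and Usp5 (-0.277) were then called below, and Zc3hav1 came to 0. A mean of at least 5 FPKM gave medians of 0.09, 0.004 and -0.028 against WT, E1-KO and E2-KO, with 20 below against E1-KO and 20 above and 9 below against E2-KO. A pseudocount of 0.1 gave 0.091, -0.023 and -0.076, with 13 above against E2-KO. Limma without trend left 5 above against E2-KO. Fitting only the samples of the 2 groups left 22 below against E1-KO, 3 above and 3 below against E2-KO, and 108 members lower than in E2-KO. Apart from the values given, the causes of these moves were not tested.

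Leaving out a replicate gave 116 to 149 lower and 2 to 5 higher against WT (median -0.606 to -0.567), 123 to 161 and 1 to 2 against E1-KO (-0.666 to -0.643), and 132 to 158 and 1 against E2-KO (-0.689 to -0.607). In E1-KO against WT it gave 16 to 28 lower and 21 to 30 higher (median 0.004 to 0.016), and in E2-KO 14 to 36 and 19 to 51 (-0.029 to 0.038); the fewest lower calls came without WT replicate 2 in both. Relative to the chromosome it gave 26 to 53 above and 25 to 44 below against WT (median 0.016 to 0.063), 6 to 16 and 4 to 35 against E1-KO (-0.106 to -0.045), and 5 to 11 and 6 to 22 against E2-KO (-0.127 to -0.068).

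Same-numbered replicates did not deviate together (correlations from -0.042 to 0.09, mean 0.005), so the numbers do not pair the samples. With the replicate block, 152 members were lower and 7 higher in E3-KO against WT, and 47 were above and 46 below the chromosome. For the 77 genes named by rule, 13 alternatives gave 1001 values against WT, of which 24 lost and 12 gained a call and 18 changed sign; 14 alternatives gave 1078 values relative to the chromosome, of which 54 lost and 27 gained a call and 55 changed sign. With values rounded, 0 of these sign changes were of genes called in the reported fit. Zc3hav1, called above the chromosome there, came to 0 with all genes above 0 and lost its call. That value is not among the 54 or the 55.

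With 2 samples a group, leaving out a replicate leaves 1, which is assumed to vary like the other groups. FPKM values hold no read counts, so the depth behind a value is unknown. Positions are of another build than the one the submitters named.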
